A study of Mus musculus with 8 samples.

Results

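Endothelial genes were followed in newborn epidermis that lacks EED. The set holds 10 genes, Kdr, Tek, Tie1, Eng, Cdh5, Pecam1, Cldn5, Esam, Emcn and Egfl7, of 21154 genes with a symbol on the array, and its members were chosen by name and found through the RefSeq accession of each probe. Together they have 11 probes, 2 of them for Kdr. RNA came from back skin epidermis of P0 C57BL/6 mice, 4 EED cKO (K14-Cre; EED flox/flox) and 4 control, peeled from the dermis after dispase and dissociated in trypsin. The alleles of the control mice are not given in the sources used here. K14-Cre deletes in the epidermal lineage and is not directed at endothelial cells. Each sample was hybridized to 1 two-color Agilent array against Universal Mouse Reference RNA, a commercial mix of mouse RNA common to the 8 arrays. In each genotype the sample dye was Cy3 for replicates 1 and 3, and for replicates 2 and 4 it was Cy5.

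Blood vessels of the skin run in the dermis, and the epidermis itself holds no vessels. Endothelial cells, which line vessels, are recognized by receptors for growth factors of the VEGF and angiopoietin families, by the proteins of their junctions and by surface glycoproteins. VEGF made by keratinocytes acts on the receptor encoded by Kdr in the vessels beneath. Eed encodes a subunit of PRC2, the complex that methylates histone H3 and holds many genes of other cell lineages silent. The comparison asks which genes of the endothelial lineage were measurable in the epidermal RNA and which of them differed between EED cKO and control.

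The promoters of the 3 tyrosine kinase receptors are shown because their genes are read by the same vessel cells but gave unlike readouts here. Kdr was measured on every array, whereas Tek and Tie1 were not. Windows of 250 bases before the start site were matched for 7 of the 10 genes, all but Pecam1, Cdh5 and Esam, and Egfl7 had 3 of the 9 windows. The sequences are from RefSeq on GRCm38.p6, 5′ to 3′ on the strand of the gene, at chr5:75978456-75978705 (minus strand) for Kdr, chr4:94739039-94739288 (plus strand) for Tek and chr4:118489850-118490099 (minus strand) for Tie1. Capitals mark the letters CCGGAA or CAGGAA, or their reverse complements, which are common forms of the motif bound by ETS factors, the main transcription factor family of endothelial genes.
Kdr: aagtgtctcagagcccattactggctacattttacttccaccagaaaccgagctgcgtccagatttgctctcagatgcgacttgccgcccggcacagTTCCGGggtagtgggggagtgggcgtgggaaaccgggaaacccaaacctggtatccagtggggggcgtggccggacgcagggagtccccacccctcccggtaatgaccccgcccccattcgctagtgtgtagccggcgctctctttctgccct
Tek: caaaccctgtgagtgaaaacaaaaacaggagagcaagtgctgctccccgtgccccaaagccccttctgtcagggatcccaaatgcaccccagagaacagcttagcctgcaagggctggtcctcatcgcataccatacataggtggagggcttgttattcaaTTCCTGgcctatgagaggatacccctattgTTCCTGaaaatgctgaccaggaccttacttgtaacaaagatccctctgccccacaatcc
Tie1: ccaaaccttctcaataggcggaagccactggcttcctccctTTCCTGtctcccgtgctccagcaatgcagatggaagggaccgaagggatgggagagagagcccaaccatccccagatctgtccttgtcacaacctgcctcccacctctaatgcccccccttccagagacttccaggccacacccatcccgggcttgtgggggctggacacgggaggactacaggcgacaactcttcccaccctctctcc
The Kdr window held 1 such match, the Tek window 2 and the Tie1 window 1. Over all members 6 of 9 windows held a match, against 35.1% of 32851 promoter windows of that length, searched on both strands. The GATA letters AGATAA were in none of the 9 windows and in 9.99% of all promoters, and the SOX letters ACAAAG were in 3 of 9 and in 16.5% of all promoters. The ratio of observed to expected CpG was 0.676 in the Kdr window, 0.126 in Tek and 0.28 in Tie1, with a median of 0.374 over all promoters. These letters are a description of the windows, and no binding was measured.

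The targeted gene was read first. Eed fell by 1.46 on the log2 scale in EED cKO (standard error, SE, 0.09 and limma adjusted p = 2.14e-05), and its groups did not overlap. Signal well above background from the sample was found at 53.3% to 65.5% of spots in EED cKO and 51.5% to 65.4% in control. A gene was tested when its probe was well above background for the sample on 3 or more of the 4 arrays of either genotype. All arrays lay on the same slide, with the EED cKO samples in one row and the controls in the other, so that slide row and genotype cannot be told apart. In RNA from a whole tissue, fewer cells of a type and less RNA per cell cannot be told apart either.

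Only a part of the endothelial program was detected. Kdr, Pecam1, Eng and Egfl7 were well above background on all 8 arrays, and Cldn5 on 3 EED cKO and 2 control arrays. Cldn5 therefore passed the filter only through EED cKO. Cdh5, Tek, Tie1 and Esam were well above background on no array, and Emcn on a single control array. Measured against the 95th percentile of the negative control spots of each array, Tie1 was above on no array, Tek on 2 EED cKO arrays and no control array, Cdh5 on 3 EED cKO arrays and no control array, and Esam on 2 EED cKO arrays and 1 control array. Of the defining markers of the lineage, VE-cadherin and both Tie receptors thus lay at or near background in both genotypes, and the set is described below as 10 genes rather than as a cell type. Among the 5 genes tested, Kdr and Pecam1 were called higher in EED cKO at a limma adjusted p below 0.05, and neither reached 2-fold. Over all 23138 genes and other targets tested, 21.7% were called in either direction, 11.8% were called higher, 9.96% were called lower, and 1.20% were called with at least a 2-fold difference.

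**Figure D1:**
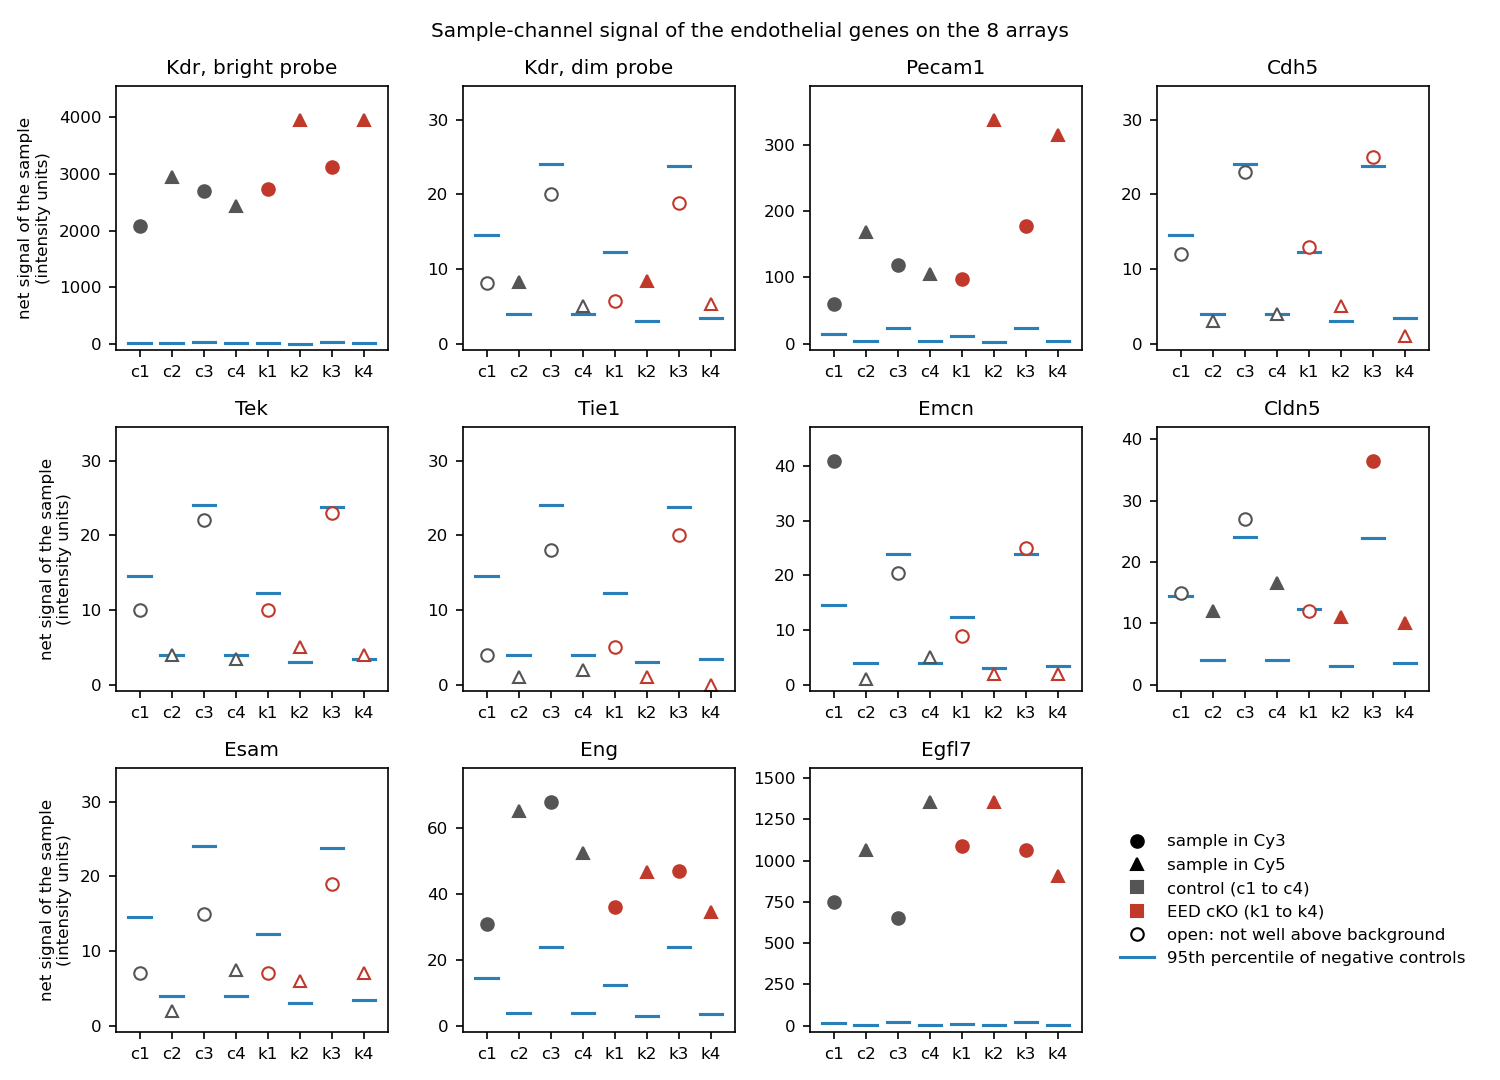
Net signal of the sample channel, in intensity units after subtraction of the local background, for each of the 11 probes on the 8 arrays (c1 to c4, control; k1 to k4, EED cKO). Circles are samples in Cy3 and triangles samples in Cy5, open symbols are not well above background, and blue bars give the 95th percentile of the 308 negative control spots of that array. The bright Kdr probe, Pecam1, Eng and Egfl7 lie above the blue bars on every array, the dim Kdr probe on the Cy5 arrays only, and Tie1 on none.

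Kdr encodes VEGF receptor 2, the main signaling receptor for VEGF on endothelial cells. Its bright probe (A_55_P2094469) gave log2 ratios of sample over reference of 1.40, 0.91, 1.46 and 1.18 in EED cKO replicates 1 to 4. In control replicates 1 to 4 the log2 ratios were 0.94, 0.35, 0.97 and 0.22. The lowest EED cKO array lay below the highest controls, so that the groups overlapped, but within each dye every EED cKO array was above both control arrays. The mean log2 ratio was 1.24 ± 0.25 in EED cKO and 0.62 ± 0.39 in control (SD, n = 4 each). The log2 fold change was 0.62 (SE 0.09, 95% interval 0.42 to 0.82), or 1.54-fold, with a limma adjusted p of 0.00218. Without regard to dye, an exact permutation test over the 8 arrays gave p = 0.0857 (two-sided). The net signal of the sample was 2731 to 3962.5 intensity units in EED cKO and 2081.5 to 2950 in control, well over the 3 to 24 units below which 95% of negative control spots lay.

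Whether Kdr was called depended on the dye term, and its rise was measured by the bright probe only, the other being near background. The log2 fold change of the bright probe was 0.47 on the Cy3 arrays (adjusted p = 0.0718) and 0.77 on the Cy5 arrays (adjusted p = 0.0239). Without the dye term it stayed at 0.62 with an adjusted p of 0.0682, all by limma. The other Kdr probe (A_51_P316553), printed in 10 spots, was well above background on 1 EED cKO and 1 control array only. Its log2 ratios were -0.17, 0.14, -0.19 and 0.07 in EED cKO and -0.19, 0.07, -0.19 and 0.02 in control. These values overlapped, and the difference without the filter on dim probes was 0.03 (limma adjusted p = 0.796). Both probes carry the same accession. The sample signal of this second probe was 5.1 to 20 intensity units, below the 95th percentile of the negative control spots on all Cy3 arrays and above it on all Cy5 arrays.

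Tek, which encodes the angiopoietin receptor Tie2, and Tie1, its partner receptor, were not well above background in either genotype. The net signal of Tek was 10, 5, 23 and 4 intensity units in EED cKO replicates 1 to 4 and 10, 4, 22 and 3.5 in control. Tie1 gave 5, 1, 20 and 0 in EED cKO and 4, 1, 18 and 2 in control. The high values of both genes were those of replicate 3 of each genotype, where the sample was in Cy3 and the negative control spots had a 95th percentile of 23.8 in EED cKO and 24 in control. Tek passed that percentile on EED cKO replicates 2 and 4 by at most 2 units. Tie1 stayed below that percentile on all 8 arrays and in both channels. In the reference RNA, too, Tek and Tie1 were well above background on no array, so that the probes were not shown to report their genes here.

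Eng encodes endoglin, a co-receptor for TGF-beta and BMP ligands that is also made by stromal cells. Its log2 ratios were -0.49, -0.94, -0.65 and -0.87 in EED cKO and -0.65, -0.86, -0.54 and -0.86 in control. The groups overlapped throughout, and the ratios below 0 place the sample under the reference on every array. The log2 fold change was -0.0092 (SE 0.07, 95% interval -0.16 to 0.15, limma adjusted p = 0.942). As a ratio of EED cKO to control the interval ran from 0.892 to 1.11, on a scale that draws dim probes toward no difference. On the Feature Extraction log ratio, which has no such offset, the difference was -0.13 (limma adjusted p = 0.537).

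Pecam1 encodes the adhesion molecule CD31 at the contacts between endothelial cells, also carried by platelets and leukocytes. It gave the largest difference of the 5 tested members. Its log2 ratios were 0.58, 1.41, 0.92 and 1.65 in EED cKO and 0.04, 0.46, 0.30 and 0.18 in control. Every EED cKO array exceeded every control array, as was so for 9.66% of all features tested. The mean was 1.14 ± 0.48 in EED cKO and 0.25 ± 0.18 in control (SD, n = 4 each), a log2 fold change of 0.89 (SE 0.15, 95% interval 0.56 to 1.23) or 1.86-fold, with a limma adjusted p of 0.00384. The exact permutation test gave p = 0.0286 (two-sided), the smallest that 4 against 4 arrays allow. The net signal was 96.75 to 337.5 intensity units in EED cKO and 59.5 to 168 in control.

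The difference of Pecam1 was 0.58 on the Cy3 arrays (limma adjusted p = 0.120) and 1.21 on the Cy5 arrays (limma adjusted p = 0.0122). The difference between the dyes, tested after the values were seen, had an unadjusted p of 0.0234 and an adjusted p of 0.767 by limma. On the Feature Extraction log ratio Pecam1 was 2.11-fold higher in EED cKO (log2 fold change 1.08, limma adjusted p = 0.0117), past the 2-fold limit, and Kdr was 1.60-fold higher (log2 fold change 0.68, limma adjusted p = 0.00923). On that scale 17.3% of all features were called in either direction, 8.33% were called higher and 2.56% were called higher by at least 2-fold. The methods' t-test, run here on the normexp and loess values, gave Benjamini-Hochberg adjusted values of 0.176 for Kdr and 0.106 for Pecam1.

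**Figure D2:**
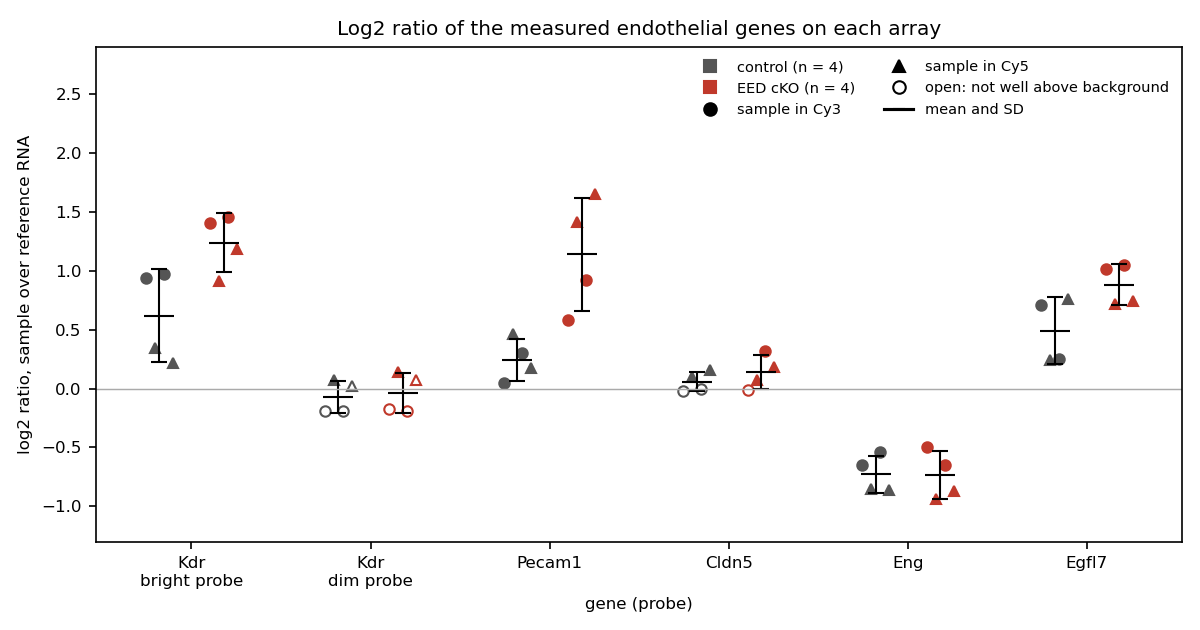
Log2 ratio of sample over reference RNA on each array for the 5 measured genes and for the dim Kdr probe, with control in gray and EED cKO in red (n = 4 each). Circles are Cy3 and triangles Cy5 samples, open symbols are not well above background, and bars give the mean and SD. Pecam1 separates the genotypes on all arrays, the bright Kdr probe separates them within each dye, and Eng and Cldn5 do not separate them.

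The other junction genes were dim or not detected. Cdh5 encodes VE-cadherin, the cadherin of endothelial junctions. Its net signal was 13, 5, 25 and 1 intensity units in EED cKO and 12, 3, 23 and 4 in control, and it was well above background in the reference RNA on 1 array. Esam, an adhesion molecule of endothelial tight junctions and platelets, gave 7, 6, 19 and 7 units in EED cKO and 7, 2, 15 and 7.5 in control. The 3 EED cKO arrays on which Cdh5 passed the 95th percentile of the negative control spots did so by at most 2 units, and the signals of both genes overlapped between the genotypes. No fold change is given for genes not well above background on either side.

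Cldn5 encodes a claudin that seals tight junctions, best known from the vessels of the brain. Its log2 ratios were -0.01, 0.07, 0.32 and 0.18 in EED cKO and -0.02, 0.10, -0.0034 and 0.16 in control, and the groups overlapped. The highest value came from EED cKO replicate 3, with a net signal of 36.5 intensity units against 10 to 27 on the other arrays. The log2 fold change was 0.08 (SE 0.09, 95% interval -0.11 to 0.28, limma adjusted p = 0.543), and without EED cKO replicate 3 it was -0.00046. The Feature Extraction log ratio gave 0.69 with a wide interval of -0.05 to 1.42 (limma adjusted p = 0.168), so that a rise of Cldn5 was not shown and a large one was not shown to be absent.

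Emcn encodes endomucin, a sialomucin of venous and capillary endothelium. Its probe was well above background only on the array of control replicate 1, at 41 intensity units in the sample and 64.5 in the reference. On the remaining 7 arrays the sample gave 1 to 25 units and the reference 2 to 31. One spot that was bright in both dyes on a single array gives no value for a comparison.

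Egfl7 encodes a protein that endothelial cells secrete into the matrix around them. Its log2 ratios were 1.02, 0.72, 1.05 and 0.74 in EED cKO and 0.71, 0.24, 0.25 and 0.76 in control. Control replicate 4 lay above 2 of the EED cKO arrays, and the groups overlapped. The log2 fold change was 0.39 (SE 0.14, 95% interval 0.08 to 0.70), or 1.31-fold, and did not pass the threshold (limma adjusted p = 0.0695, exact permutation p = 0.114, two-sided). Without control replicate 4 it was 0.53 with a limma adjusted p of 0.0156. The net signal was 909 to 1357 intensity units in EED cKO and 651 to 1358 in control.

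**Figure D3:**
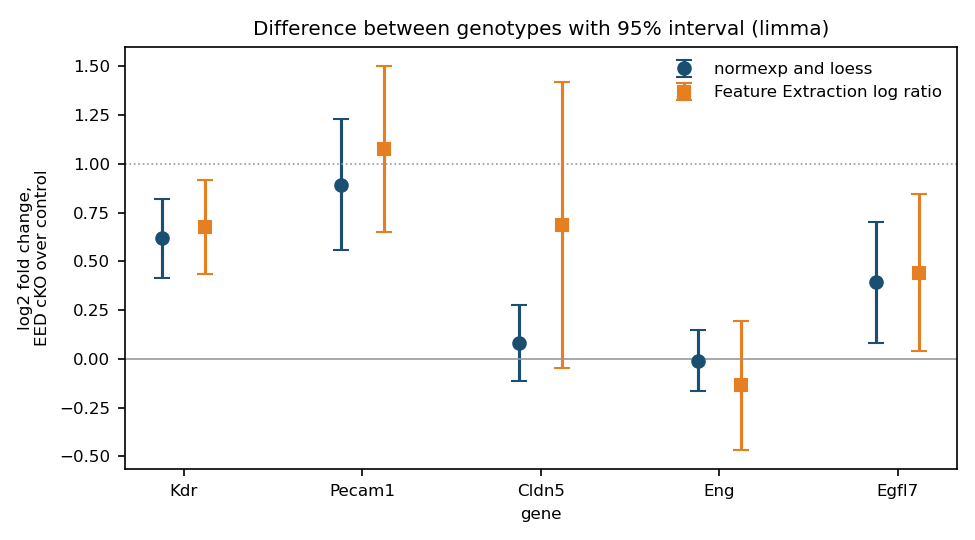
Log2 fold change of EED cKO over control for the 5 tested endothelial genes, with 95% intervals from limma, after normexp and loess (blue circles) and on the Feature Extraction log ratio (orange squares). The intervals of Kdr, Pecam1 and Egfl7 lie above 0 on both scales (Egfl7 did not pass after adjustment), the dotted line marks 2-fold, and the scales differ most for Cldn5, at 0.08 and 0.69.

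The reference channel served as a check, since it held the same RNA on every array. Between the EED cKO and the control row of the slide, the reference signals of the 5 measured genes differed by -0.07 to 0.10 on the log2 scale (limma adjusted p 0.522 to 0.979). For Kdr and Pecam1 these differences were 0.01 each. The sample channel gave log2 fold changes of 0.63 for Kdr and 0.91 for Pecam1 (limma adjusted p 0.0138 and 0.0133). Both channels were read after loess within arrays and quantile scaling of mean intensity between arrays. These steps use both dyes, so that neither channel is independent of the other.

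Across the 8 arrays the measured genes did not move as a block. The median Pearson r of the 10 pairs was 0.33 for the log2 ratios, from -0.46 for Pecam1 with Eng to 0.58 for Kdr with Egfl7. Kdr and Pecam1 had r = 0.42 (Spearman rho 0.45) over the 8 arrays, and r = 0.14 without control replicates 2 and 4, the arrays farthest from the median of Kdr. After genotype and dye were fitted out, the median r was -0.14. Kdr and Pecam1 then had r = 0.87, whereas Pecam1 and Egfl7 had r = -0.70 and Kdr and Egfl7 r = -0.52. With the dye left in, Kdr and Pecam1 had r = -0.36 over the control arrays and -0.72 over the EED cKO arrays. The points share the reference RNA, the slide and the dye layout, and deviations left after a fit of 3 terms to 8 arrays are few, so that these values are descriptions.

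**Figure D4:**
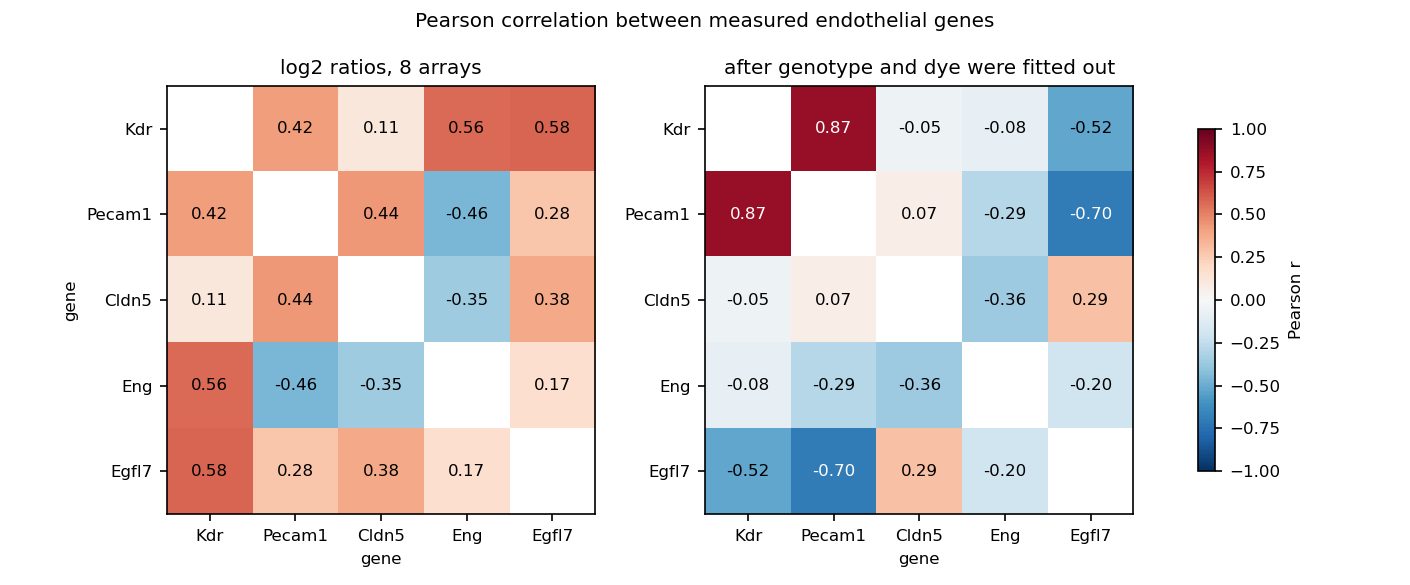
Pearson correlation between the log2 ratios of the 5 measured endothelial genes over the 8 arrays (left) and between the deviations after genotype and dye were fitted out (right), with red positive and blue negative. Kdr and Pecam1 change from 0.42 to 0.87, and Kdr and Egfl7 from 0.58 to -0.52.

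Among the 5 measured genes, Cldn5 entered only through EED cKO, where its mean log2 ratio was higher (0.14 against 0.06 in control). The mean of the 5 genes, each centered on its own mean, was -0.28 to -0.13 on the control arrays and 0.10 to 0.28 on the EED cKO arrays. Among the 10 other genes most like this mean over the 8 arrays were Steap1, Tnfsf12, S100a6, Atp5e, Mgp, Sult4a1, Wfdc17, Sfn and Rab6b, with Pearson r from 0.982 to 0.990. Each of those named was itself higher in EED cKO, from a log2 fold change of 0.23 for Sfn (limma adjusted p = 0.0302) to 1.76 for Wfdc17 (limma adjusted p = 8.10e-05). Likeness to a mean that separates the genotypes selects genes that separate them too.

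A wider list of 40 surface and signaling genes of endothelium gave a similar picture of partial detection. Of these, 39 were on the array, 24 were tested, and 6 were called, all of them higher in EED cKO, where 21.7% of all features were called and 11.8% were called higher. The median log2 fold change was 0.11 over the tested genes against 0.019 over all features. The largest difference was that of Thbd, which encodes thrombomodulin, an anticoagulant receptor of endothelium that keratinocytes also make. Its log2 fold change was 0.94 (SE 0.19, limma adjusted p = 0.00941), with log2 ratios of 0.13 to 0.74 in EED cKO and -0.98 to -0.15 in control. She, an adaptor protein gene, rose by 0.69 (limma adjusted p = 0.000432) and was well above background on 4 EED cKO arrays and 1 control array, with 2.95 on the Feature Extraction log ratio. It passed the filter only through EED cKO, the group where it was high, and its net signal in control was 9 to 24.5 intensity units, so that the size of the difference is not settled. Nos3, the endothelial nitric oxide synthase, rose by 0.48 (limma adjusted p = 0.00585), with 0.19 at its other probe. Esm1, Sele, Adgrl4, Adgrf5, Pcdh12, Shank3 and Podxl were well above background on no array.

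The transcription factors of the lineage held the largest difference among the vascular lists. Etv2, the ETS factor that starts the endothelial and blood lineage in the embryo and is then switched off, gave log2 ratios of 2.75, 3.05, 3.03 and 2.79 in EED cKO. In control its log2 ratios were -0.06, 0.17, 0.01 and 0.21. The groups lay far apart, with a log2 fold change of 2.82 (SE 0.09, limma adjusted p = 5.29e-07), 1.3 at its other probe and 4.83 on the Feature Extraction log ratio. The size of the fold is not settled, since the control lay near background and the offset shrinks such ratios. The net signal of Etv2 was 233 to 336 intensity units in EED cKO and 10 to 26 in control, where the probe was well above background on 2 of 4 arrays. Etv2 therefore passed the filter only through EED cKO, the group where it was high. Foxc1, a forkhead factor of vessels and also of skin appendages, rose by 0.92 (limma adjusted p = 0.00285), and Ets2 fell by 0.48 (limma adjusted p = 0.0128). These 3 were the genes called among 15 tested of 21, whose median was 0.07, where 21.7% of all features were called. Erg, the ETS factor most restricted to endothelium, was well above background on no array, and Fli1 had a log2 fold change of -0.07 (limma adjusted p = 0.708), both named after their values were seen.

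**Figure D5:**
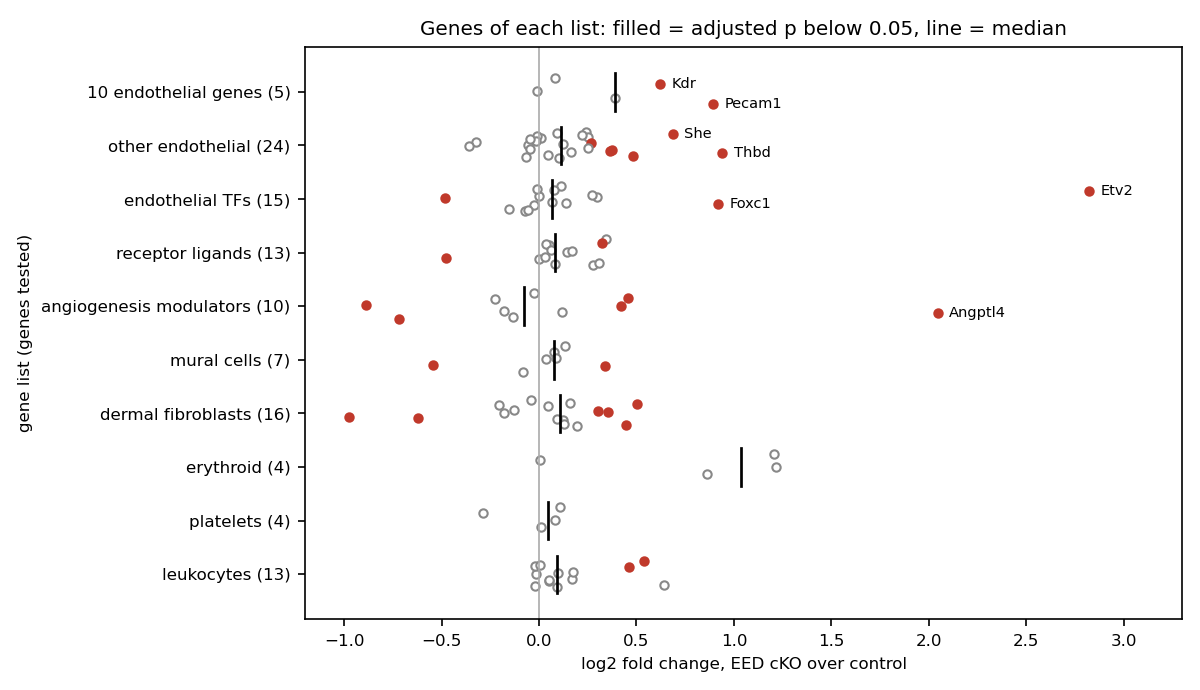
Log2 fold change of EED cKO over control for the tested genes of each list, with the number tested in brackets. Filled points have a limma adjusted p below 0.05, and the black line is the median of the list. Etv2, at 2.82, and Angptl4, at 2.05, lie far from the medians of their lists, and the 10 endothelial genes had 5 tested.

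Of 16 ligands of the endothelial receptors 13 were tested and 2 were called, against 21.7% of all features, with a median log2 fold change of 0.08. Vegfc, which acts on VEGF receptors of lymphatic and blood vessels, rose by 0.33 (limma adjusted p = 0.0167). Pdgfb, which endothelial cells send to pericytes, fell by 0.48 (limma adjusted p = 0.0168), with -0.14 at its other probe. Vegfa, the ligand of the receptor encoded by Kdr, had a log2 fold change of 0.03 (limma adjusted p = 0.816) and is named here after its value was seen. Among 10 tested genes of inhibitors and soluble modulators of vessel growth, 3 were called higher and 2 lower, against 11.8% and 9.96% of all features. Angptl4, a secreted inhibitor of lipoprotein lipase that also acts on vessels, rose by 2.05 (4.13-fold, limma adjusted p = 0.00207), from -3.30 to -1.90 in control to -1.01 to -0.01 in EED cKO. Thbs1, which encodes an antiangiogenic thrombospondin, fell by 0.89 (limma adjusted p = 0.0271) with overlapping groups. Thbs2, another thrombospondin gene of the list, went the other way and rose by 0.46 (limma adjusted p = 0.00647). It is named after its value was seen. On the Feature Extraction log ratio the limma adjusted p was 0.0595 for Thbs1 and 0.0544 for Thbs2. Sema3f, a repellent guidance ligand, fell by 0.72 (limma adjusted p = 0.00296).

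Markers of other cells that could reach an epidermal preparation were read beside Kdr and Pecam1, and their part in those differences was not tested. No gene of lymphatic endothelium was tested, and Prox1, Lyve1, Mmrn1 and Reln were well above background on no array. Of 7 tested genes of pericytes and smooth muscle, 1 was called higher and 1 lower, against 21.7% of all features called. Cnn1 rose by 0.34 (limma adjusted p = 0.0230), but it passed the filter only through EED cKO, the group where it was high. Its net signal was 19 to 29 intensity units in EED cKO and 14 to 23.5 in control, so that a rise is not settled. On the Feature Extraction log ratio its limma adjusted p was 0.0573. Notch3, at 396.5 to 1745 intensity units, fell by 0.55 with overlapping groups (limma adjusted p = 0.0153). Rgs5, Myh11, Abcc9 and Kcnj8 were well above background on no array. Of 16 tested genes of dermal fibroblasts, 4 were called higher and 2 lower, against 11.8% and 9.96% of all features, with a median of 0.11. Among those called higher, Fbn1 (0.30, limma adjusted p = 0.0485) passed the filter only through EED cKO and is named after its value was seen. Its net signal was 18 to 35.5 intensity units in EED cKO and 17 to 30.5 in control, so that its rise is not settled. Postn fell by 0.98 and Fap by 0.62, whereas Lum rose by 0.50 (limma adjusted p 0.00384, 0.00321 and 0.0121). The summed net signal of the fibroblast list was 24267 to 42043 intensity units in EED cKO and 27294 to 56161 in control.

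Blood cells share Pecam1 with endothelium, and their markers were read beside it. Of 13 tested leukocyte genes 2 were called higher and 0 lower, where 11.8% of all features were called higher. Cd3e rose by 0.54 (limma adjusted p = 0.00350) and Cd74 by 0.46 (limma adjusted p = 0.0439), while Ptprc, the common leukocyte antigen, had a log2 fold change of 0.0035 (limma adjusted p = 0.983). The summed signal of that list was 6330 to 9700 intensity units in EED cKO and 4258 to 13768 in control. For platelets 4 of 8 genes were tested, with a median of 0.05 and sums of 361 to 529 in EED cKO and 326 to 1008 in control. By limma none of the 4 had an adjusted or unadjusted p below 0.05, where 21.7% of all features were called. Gp9, Gp1ba and Gp5 were well above background on no array. The globin genes Hba-a1, Hbb-bt and Hbb-b1 had log2 fold changes of 1.21, 1.22 and 0.86 (limma adjusted p 0.116, 0.145 and 0.191). On the Feature Extraction log ratio they were 1.18, -0.27 and 2.20, so that Hbb-bt changed direction with the scale, and the cause was not tested. Hbb-b1 was well above background on 4 EED cKO and 2 control arrays. It passed the filter only through EED cKO, the group where its mean was higher. The list had a summed erythroid signal of 474 to 4106 intensity units in EED cKO and 252 to 2084 in control. The centered mean of the erythroid list was -0.41 in EED cKO replicate 1 and 0.56 to 0.81 in the other 3, and in control 0.59 in replicate 1 and -1.08 to -0.57 in the other 3, so that the genotypes overlapped.

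Of the gene lists, the adipocyte genes had the highest correlation with Pecam1 across the arrays, but not the only high one. The mean of the 3 tested genes, Lep, Plin1 and Retn, had r = 0.97 with Pecam1 and 0.51 with Kdr over the 8 arrays. Over the other cell type and vascular lists, r with Pecam1 ran from -0.16 for Schwann cells to 0.86 for the receptor ligands. It was 0.73 for melanocytes. Lep, the leptin gene, had a log2 fold change of 0.23 (limma adjusted p = 0.0389). Its net signal was dim, 23.8 to 36.6 intensity units in EED cKO and 11.5 to 33.4 in control, so that the size of a rise is not settled. Plin1 and Retn had log2 fold changes of 0.16 and 0.55 (limma adjusted p 0.182 and 0.0544). On the Feature Extraction log ratio the 3 were at 0.87, 1.34 and 1.46 (limma adjusted p 0.0139, 0.0299 and 0.0671). Plin1 was well above background on 3 EED cKO arrays and 1 control array, and passed the filter only through EED cKO. The summed net signal of the list was 83 to 182 intensity units in EED cKO and 44 to 138 in control, Adipoq was well above background on no array, and the part of these cells in the rise of Pecam1 was not tested.

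The epidermal share of the samples was read from keratinocyte genes. Of 7 tested basal genes 4 were called lower in EED cKO, where 9.96% of all features were called lower. Among them were Itga6 at -0.74 and Itgb4 at -0.51 (limma adjusted p 0.00319 and 0.0218), while Krt5 and Krt14 were at 0.06 and 0.10. Of 5 tested suprabasal genes none had a limma adjusted p below 0.05, where 21.7% of all features were called, and 1 had an unadjusted p below 0.05. Over the 8 arrays the mean of the basal list had r = -0.92 with Kdr and -0.10 with Pecam1. This is a description over arrays that share the reference and the dye layout, and the relation was not tested.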

How the data were processed

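The authors scanned the arrays and deposited Agilent Feature Extraction 12.0.1.1 output (version from the submitters' processing notes), with spot and local background intensity in each dye, above-background flags, and the software's log10 ratio (Cy5 over Cy3), which it computes on background-subtracted, dye-normalized signals. The deposited series table holds log2 ratios, which for 55190 probes with 1 spot matched the sample over reference ratio of the processed signals within 1e-05. No deposited column was left without a sample. Those column medians were 0.03 to 0.14, and the table was not centered.

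Here the median spot intensity was corrected by normexp (offset 50), each array was normalized by loess, swapped arrays were turned to sample over reference, and spots of a probe were averaged. With this offset, ratios of dim spots shrink toward 0. For genes with more than 1 probe the brightest on average was taken. Probes were named by RefSeq accession (28026 of 29796 matched, GRCm38.p6). The array was annotated on mm9, so no probe coordinates are given, and those of promoter windows are RefSeq's on GRCm38.p6. Of 36799 features 23138 passed the filter, 14946 of them with a symbol, and 18 missing values were set to the mean of their group, none of them at a member. The test of genotype used limma 3.58.1 in R 4.3.3 (genotype plus dye) and Benjamini-Hochberg adjustment over all 23138. For single genes the 8 arrays were also permuted exactly. The code was tested on simulated data.

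The members, the lists and the tests were chosen with earlier results of these data known. Named genes are the 10 members, Eed, up to 3 called genes of each list with the largest absolute fold change, the 10 genes most like the members' mean, and others said to be named after their values were seen. Not every gene this rule takes is reported here. The lists not described in the text were Schwann cells (Sox10 fell by 0.50), melanocytes (6 tested, none called, 2 with an unadjusted p below 0.05 by limma) and skeletal muscle (1 tested, not called). Over all features 21.7% were called.

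Replicates are labelled as biological, with no meaning given for their number. Samples with the same number deviated together across genes (r = 0.49, 0.68, 0.33 and 0.36), and less so after the dye, which shares the number, was removed (r = -0.14, 0.23, -0.13 and 0.05). Times in dispase and trypsin differ between the labels and the study's methods. The number of arrays limits the precision. Alternatives covered background correction, normalization, filter, probe choice, dye term, replicate block, array weights, intensity trend, the methods' t-test and each array left out.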

Additional observations from a re-analysis of the deposited data

How the results depend on the processing

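Kdr stayed higher in EED cKO in all 26 alternatives, with log2 fold changes of 0.47 to 0.77, and was called in 23 of them. It was not called without the dye term (limma adjusted p = 0.0682), within the Cy3 arrays (0.0718) or by the methods' t-test (0.176). Pecam1 stayed higher in all 26, at 0.58 to 1.21, and was called in 24, all but the Cy3 arrays alone (0.120) and the methods' t-test (0.106). Egfl7 was higher in all 26, at 0.23 to 0.55, and was called in 2, with array weights (0.42, limma adjusted p = 0.0365) and without control replicate 4. Cldn5 was called in none of 25 and turned to -0.00046 without EED cKO replicate 3. Eng was called in none of 26 and turned above 0 with quantile normalization (0.0089), within the Cy3 arrays (0.027), without control replicate 3 (0.0057) and without EED cKO replicates 2 (0.012) or 3 (0.014). With each array left out in turn, Cldn5 ranged up to 0.13 and Eng from -0.047 to 0.014.

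Of the endothelial genes, 2 were called in the main analysis, 1 without the dye term, 0 within the Cy3 arrays, 0 by the methods' t-test after adjustment (2 with an unadjusted p below 0.05), 0 with a 2-fold limit, and 2 to 3 with each array left out in turn. With the replicate number as a block, 2 were called, Kdr and Pecam1 (limma adjusted p = 0.00418 and 0.00509), and the pairing changed no other call of a member (Egfl7 0.0507). Over all features 5031 were called (2727 of them higher), against 2554 with median centring (1014 of them higher), 2357 without the dye term, 495 within the Cy3 arrays, 2465 within the Cy5 arrays, 908 by the methods' t-test after the same adjustment, 278 with a 2-fold limit, 2724 to 5050 with each array left out (lowest without control replicate 2, 2952 without EED cKO replicate 4, 3341 without EED cKO replicate 3) and 5983 with the replicate block. Called with a 2-fold limit were 699 on the Feature Extraction log ratio, 698 on the deposited table and 275 by the methods' t-test at its unadjusted threshold (174 after Benjamini-Hochberg). The median correlation between members turned from 0.33 to -0.14 after genotype and dye were fitted out. The causes were not tested.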
